A study of Mus musculus with 23 samples.

Results

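Wild-type bone marrow-derived macrophages that had received bacterial lipopolysaccharide (LPS) at 100 ng/ml for 4 h were compared with the untreated wild-type cells of the same series. The comparison takes the 3 libraries titled wild-type 4 h against the 3 titled wild-type 0 h, 6 of the 23 libraries deposited, and covers all 55401 genes of the count table, of which 18083 had enough reads to be tested. Bone marrow-derived macrophages are grown from marrow progenitors in culture, and both groups are labelled wild-type, 1 with no treatment and the other with LPS. The series holds the same time course, with further times of 8 and 24 h, in wild-type cells and in cells labelled Selenow knock-out. Strain, age, sex and the number of animals are not stated in the labels. They also leave out if each library is an animal or a culture of its own, and p-values therefore measure the spread between libraries, which may be technical. Untreated cells exist at 0 h only, so 4 h of LPS and 4 h of further culture cannot be told apart. RNA was measured in bulk, and fewer cells of a type cannot be told apart from less RNA per cell.

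LPS is a component of the outer membrane of Gram-negative bacteria. The accessory protein CD14 hands it to the complex of Toll-like receptor 4 (TLR4) and MD-2, and the receptor signals through the adaptor pair MyD88 and TIRAP to NF-kB and the MAP kinases, and, from endosomes, through TRIF and TRAM to IRF3 and the gene of interferon-beta. Secreted interferon then acts back on the same cells through STAT factors and IRF9. Immediate early genes, feedback inhibitors, cytokines and interferon-induced genes are therefore known to follow each other over the first hours of a response.

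The 6 libraries held between 39521403 and 41665055 counted fragments (read pairs over exons) on 21966 to 22922 genes each. Levels are given in CPM (fragments per 1000000 counted) after scaling by the trimmed mean of M values (TMM), in the order of libraries 1, 2 and 3 (untreated) and 4, 5 and 6 (LPS). A gene with no read in any 1 library could still sit at 0.0896 CPM at most, a limit that covers counting error only. Differences are log2 fold changes, LPS minus untreated, with their standard error (SE), from edgeR's quasi-likelihood test, and a gene rose or fell where its Benjamini-Hochberg adjusted p over all genes tested was under 0.05. Libraries 3 and 6 stood apart from the others of their groups. Their deviations from the group mean, over 9236 genes, had an SD of 0.299 and 0.26 on the log2 scale, against 0.161 to 0.172 in the other 4 libraries, and they correlated with each other (r = 0.425 across genes, which are not independent replicates) while libraries 1 and 2 correlated with libraries 4 and 5 (r from 0.181 to 0.381). Deviations within a group cancel out for each gene, so the second set of correlations follows in part from the first. Fragment shares, levels per kb, motif shares, biotype counts and marker sums below rest on all 6 libraries. Because libraries 3 and 6 stood apart, the fit and its calls were also computed with both left out. That gave 10458 called genes, 4781 higher and 5677 lower, and of the 500 genes named here that were called, 491 remained called, the exceptions being Atf4, Ccnd1, Cd200r1, Ltb4r1, Sesn3, Slc39a10, Snhg1, Snhg5 and Top2a.

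The macrophage label was checked against its markers. Of 24 genes of macrophage identity, 3 rose, 4 fell and 17 did not pass the test. With scaling by library totals alone, 2 were higher and 16 lower, so the absence of calls below holds on the TMM scale only. Csf1r, the receptor of the growth factor that sustains macrophages, held 2614, 2815 and 2078 CPM untreated and 2016, 2024 and 1863 CPM after LPS, and Adgre1, which encodes a surface antigen used to sort mouse macrophages, held 504, 559 and 444 CPM untreated and 569, 575 and 584 CPM after LPS. Both were well above the limit of detection in all 6 libraries, with no call between the groups on the TMM scale. Levels of the lysozyme gene Lyz2 were 11493, 11816 and 9020.2 CPM untreated and 8549.6, 9066 and 8132 CPM after LPS, and Cd68 and Mpeg1, both common macrophage markers, were likewise measured in every library and not called. Selenow, the gene removed in the other genotype of the series, held 127, 103 and 133 CPM untreated and 202, 181 and 203 CPM after LPS, with a log2 fold change of 0.69 ± 0.37 that did not pass (adjusted p = 0.11, edgeR's quasi-likelihood test with Benjamini-Hochberg adjustment). The groups did not overlap, and with the knock-out libraries left out of the fit Selenow passed (0.69 over the 12 wild-type libraries, edgeR adjusted p = 0.00048, and 0.79 over the 6 compared alone, edgeR adjusted p = 0.00092).

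Sequences before the start sites of 3 strongly responding genes show the kinds of letters that the response is known to use. They were taken from RefSeq (GRCm38.p6) as the 250 bases before an annotated start, 5′ to 3′ on the gene's own strand. Capitals mark matches to the NF-kB motif GGANTTTCC, to GAAANNGAA, the core of the interferon-stimulated response element, and to the AP-1 motif TGACTCA, each searched on both strands. Il6 (chr5:30012864-30013113, plus strand) encodes interleukin-6, Nfkbia (chr12:55492648-55492897, minus strand) the NF-kB inhibitor IkB-alpha, and Cxcl10 (chr5:92348890-92349139, minus strand) a chemokine for activated T cells.
Il6: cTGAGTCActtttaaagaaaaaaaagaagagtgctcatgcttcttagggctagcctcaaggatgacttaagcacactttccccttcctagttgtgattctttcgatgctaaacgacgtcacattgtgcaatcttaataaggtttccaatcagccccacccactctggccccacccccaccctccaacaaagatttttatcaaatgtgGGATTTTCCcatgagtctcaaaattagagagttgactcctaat
Nfkbia: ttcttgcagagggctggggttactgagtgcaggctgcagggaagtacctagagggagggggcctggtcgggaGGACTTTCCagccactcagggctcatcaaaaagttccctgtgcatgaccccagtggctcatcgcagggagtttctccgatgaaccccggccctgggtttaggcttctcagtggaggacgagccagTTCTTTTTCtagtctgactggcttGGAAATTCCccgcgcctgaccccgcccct
Cxcl10: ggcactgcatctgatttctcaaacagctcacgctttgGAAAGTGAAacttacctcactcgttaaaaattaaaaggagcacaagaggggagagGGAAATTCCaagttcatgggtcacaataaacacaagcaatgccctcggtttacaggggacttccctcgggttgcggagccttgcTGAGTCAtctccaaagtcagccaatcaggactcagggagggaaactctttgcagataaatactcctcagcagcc
In the Il6 window the NF-kB match lies 43 to 35 bases before the start and an AP-1 match (read on the other strand, as in the Cxcl10 window) 249 to 243 bases before it. The Nfkbia window holds NF-kB matches 178 to 170 and 29 to 21 bases before the start, the latter on the other strand, and a pyrimidine run that matches the interferon core on the other strand 53 to 45 bases before it. The Cxcl10 window holds an interferon core 213 to 205 bases, an NF-kB match on the other strand 158 to 150 bases and an AP-1 match 74 to 68 bases before the start. Across windows from 250 bases before to 50 after the start, the NF-kB motif was found in 3.46% of 926 windows of genes that rose at least 8-fold, in 0.774% of 517 windows of genes that fell at least 8-fold and in 1.39% of the 14108 windows of all genes tested. The interferon core was in 15.6%, 4.06% and 7.56% of the same windows, and the AP-1 motif in 8.86%, 4.64% and 4.08%. The E-box CACGTG, the site of clock, Myc and MiT/TFE factors, was in 6.48%, 13% and 9.51%, fewest among genes that rose. Over all 32851 windows, with genes not tested, the motifs in this order were in 1.25%, 8.56%, 5.2% and 7.15%. The NF-kB shares rest on 32 windows of genes that rose and 4 of genes that fell. The 926 and 517 windows belong to 734 and 375 genes, so a gene can count more than once. Motifs for NF-kB and the interferon core were shorter than first planned, and a planned sterol motif was not searched. No letters of these motifs overlap in the windows printed. A match is a description of letters in a window, and the window of Nos2 was not analysed here.

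Of the 18083 genes tested, 11382 (62.9%) were called, 5092 higher (28.2%) and 6290 lower (34.8%). Counts of list members below are to be read beside these shares, so calls in both directions do not by themselves set a list apart. The 2 directions differed in size. A fold change of at least 8 was reached by 1221 of the genes that rose and 628 of those that fell. The most extreme class, over 8 on the log2 scale, held 109 genes that rose and 3 that fell, while the falls were mostly moderate, 3258 of them between 1 and 3 on the log2 scale. Against a fold of at least 1.5, 7384 genes (40.8%) passed, 3391 higher (18.8%) and 3993 lower (22.1%). In 66.9% of the genes tested the 3 untreated and 3 LPS libraries did not overlap. The median over all genes tested was -0.12.

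The response took up a large part of the counted RNA. Genes that rose at least 8-fold held 1.36%, 1.35% and 1.69% of all counted fragments in the untreated libraries and 25.5%, 25.9% and 24.3% after LPS. All genes that rose together went from a mean of 27.8% ± 1.22 (SD, n = 3) to 63.9% ± 1.2, and all genes that fell from 32.8% ± 0.222 to 10.8% ± 0.716. These genes were chosen by their call in the same libraries, so the shares are a description. The 10 genes with the largest gain in share, led by the antiviral gene Rsad2 (1.5%, 1.63% and 1.4% after LPS), Cxcl10 (1.09%, 1.09% and 1.11%), the itaconate synthase gene Acod1 and the cytoskeletal actin gene Actb, held 0.688% ± 0.156 untreated and 7.98% ± 0.311 after LPS. Largest losses of share were seen in Lyz2, the ferritin light chain gene Ftl1 and the cathepsin gene Ctsb. Such shares must sum to the whole, so the remaining genes as a whole lose share when a group gains it. TMM scaling sets the bulk of genes near 0 to allow for this, whereas scaling by library totals alone moved the median of all genes by -0.61 to -0.73 and turned the split of calls from 5092 higher and 6290 lower to 3015 higher (16.7%) and 10368 lower (57.3%), or 74.0% of the genes tested in all. Changes below are relative to the TMM scale. Where a group's 2 counts are printed, counts on the totals scale are added if the larger of them, higher or lower, differs between the scales. Groups described without counts can turn as well: complement genes had 10 higher and 2 lower, but 7 and 8 on the totals scale.

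**Figure D1:**
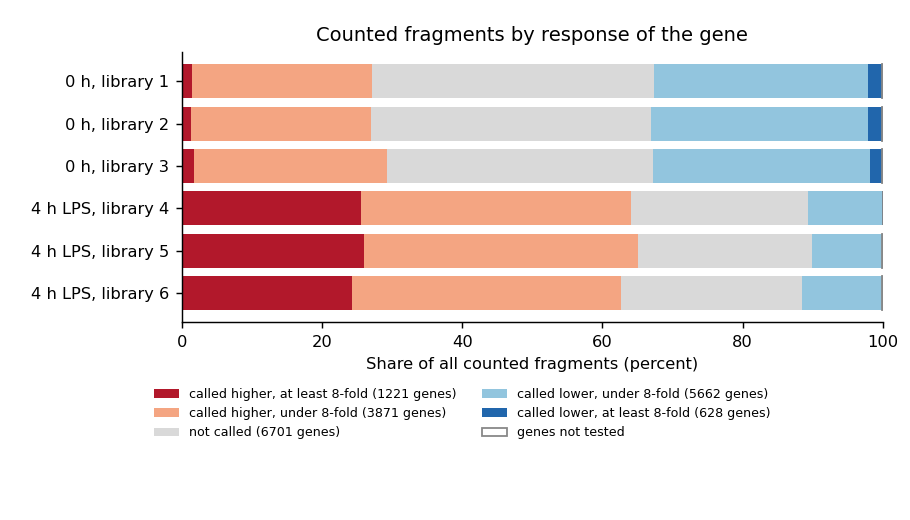
Share of all counted fragments (percent, stacked from 0 to the whole) in each of the 6 libraries, divided by the call and size of the gene's change. Genes that rose at least 8-fold take 1.35% to 1.69% of fragments in the untreated libraries and 24.3% to 25.9% after LPS.

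**Figure D2:**
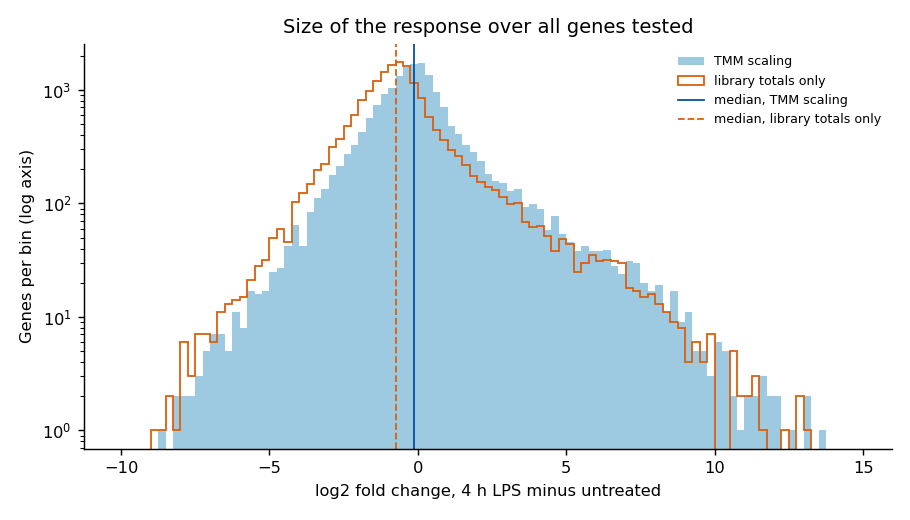
Number of tested genes per bin of log2 fold change (LPS minus untreated), under TMM scaling (filled) and under scaling by library totals alone (line), with vertical lines at the medians of -0.12 and -0.73. The right tail is longer than the left under both scalings, and the totals scale shifts the whole distribution to the left.

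By biotype, 3833 protein-coding genes rose and 5102 fell among 13220 tested. Processed pseudogenes rose in 320 cases and fell in 104 of 1447, a reverse split that cannot be told apart from reads of their parent genes. Long intergenic RNAs (130 higher and 162 lower of 473) and antisense genes (335 higher and 393 lower of 1126) were called in both directions, the latter with the limit that counting ignored strand. Only 8 of 134 small nucleolar RNA entries rose and 44 fell. A total of 149 tested genes had no read in any untreated library, of which 124 rose, and 73 had none after LPS, of which 52 fell. The direction of these calls was fixed in advance, since such genes passed the filter only through groups where they had reads.

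The largest rises, among genes averaging 5 CPM or more after LPS and with no overlap of libraries, included those of secreted mediators. Il6 held 0.0374, 0.0185 and 0.0948 CPM untreated and 396, 516 and 1023 CPM after LPS, a log2 fold change of 13.57 ± 1.52 (adjusted p = 2.8e-07, edgeR's quasi-likelihood test with Benjamini-Hochberg adjustment). Library 6 held the highest level of Il6. Il33, the gene of an alarmin of the interleukin-1 family, had no read in any untreated library and 28.9, 31.9 and 21.1 CPM after LPS, at least 1447-fold higher taking a floor of 3 counts for the untreated group as a whole, and Il19, of the interleukin-10 family (24.8, 25.3 and 11.5 CPM, at least 1078-fold) did the same. The vasoconstrictor gene Edn1 rose by 12.11 ± 1.03, the pentraxin gene Ptx3, whose product tags microbes, by 11.26 ± 0.76, the oxidized LDL receptor gene Olr1 by 11.14 ± 0.66, and the endothelial lipase gene Lipg by 11.39 ± 0.99. Lipg is a phospholipase for high-density lipoprotein, and went from 0.15, 0.0185 and 0.246 CPM to 420.3, 422 and 286 CPM. Etnk2, an ethanolamine kinase gene with no untreated read, reached 5.97, 5.62 and 6.41 CPM (at least 321-fold), and Tmem132e, Inava and Il23r also went from no read to between 2.54 and 7.86 CPM. Il23r encodes the receptor subunit for interleukin-23. Leaving out library 3 moved the fold by over 1.5 times for Il6 (14.35), Edn1 (12.70) and Lipg (12.08), the log2 fold change without it in parentheses.

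The largest falls by the same rule included several transcription factors. Mnt, a transcriptional repressor that competes with Myc, held 82.7, 87 and 63 CPM untreated and 0.627, 0.443 and 0.583 CPM after LPS (log2 fold change -7.13 ± 0.26). Sesn1, a sestrin that restrains the growth kinase mTORC1, held 92.3, 105 and 43.6 CPM untreated and 1.04, 0.768 and 1.4 CPM after LPS (-6.22 ± 0.38). Lyl1, a basic helix-loop-helix factor of blood progenitors, held 169.8, 167 and 100.2 CPM untreated and 2.9, 3.28 and 1.54 CPM after LPS (-5.83 ± 0.36). That every LPS library was below every untreated library for these 3 genes was a condition of the rule. Falls of similar size were measured for Tfap4 (-6.22 ± 0.55), a helix-loop-helix factor and Myc target, Fam83f (-5.93 ± 0.31), Prr5 (-5.9 ± 0.45), a component of the kinase complex mTORC2, and the GSK3-binding genes Frat1 (-7.25 ± 0.69) and Frat2 (-5.71 ± 0.56), which favour Wnt signalling. Frat2 held 8.39, 9.23 and 2.33 CPM untreated and 0.0896, 0.177 and 0.106 CPM after LPS. Hist1h2an, a histone gene with near-identical copies, held 5.3, 0.443 and 13 CPM untreated and 0, 0 and 0.265 CPM after LPS, with an untreated level that varied widely between libraries. Folds moved by over 1.5 times without library 5 for Tfap4 (-7.2).

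On a scale per kilobase of exon, which allows levels of different genes to be compared, the largest gains among called genes were in small chemokine transcripts. Ccl3 went from 98.5 to 8511 CPM per kb and Ccl4 from 52.2 to 7026, so that both ended above Actb (1844 to 5929.9 CPM per kb), which is among the most abundant mRNAs of a macrophage. Cxcl10 (5.1 to 5681), Acod1 (6.94 to 4297), Rsad2 (9.45 to 4078), Ccl5 (4.85 to 3256) and Ifit1 (9.72 to 2470.3 CPM per kb) followed. Losses were likewise ranked among called genes only, so Lyz2, which was not called, is left out. Largest there, apart from short noncoding entries and predicted loci, were those of Ftl1, from 6289 to 3752, and Sirpa, from 343 to 104. The membrane protein gene Serinc3, from 528 to 318, and the tubulin gene Tubb5, from 244 to 57.8 CPM per kb, came next. Tubb5 was higher in library 3 than in the other untreated libraries and higher in library 6 than in the other LPS libraries.

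**Figure D3:**
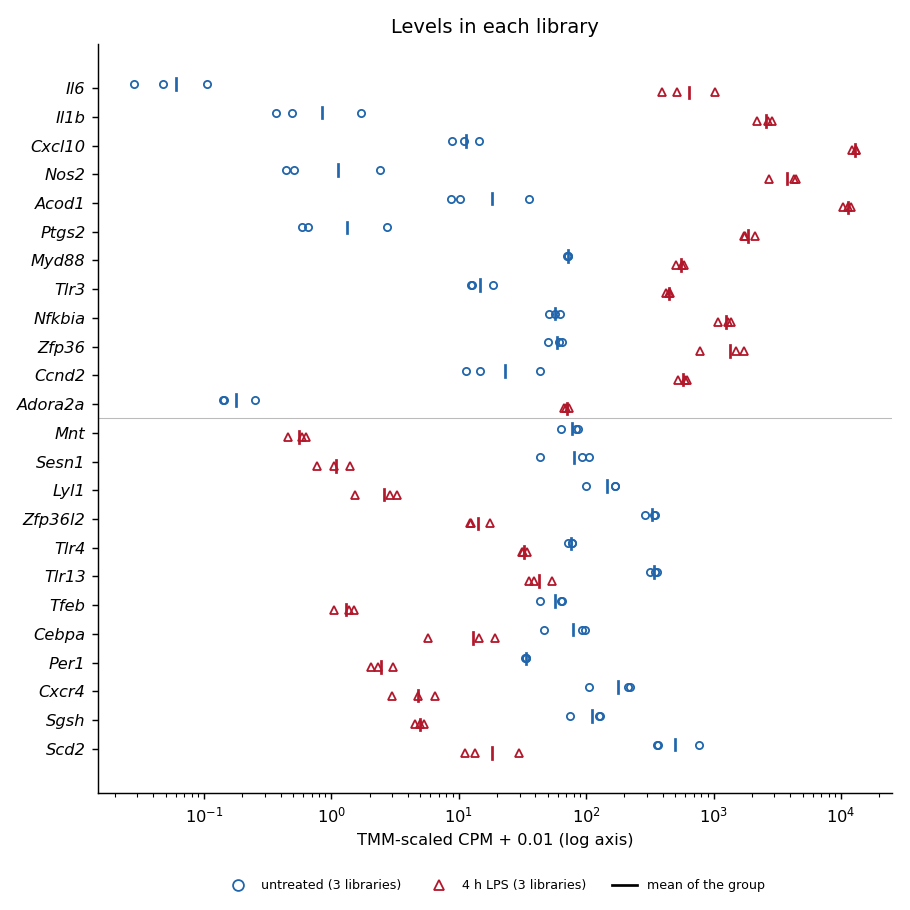
Level of 24 genes in each of the 6 libraries, in TMM-scaled CPM plus 0.01 on a log axis, with circles for the 3 untreated and triangles for the 3 LPS libraries and a bar at each group's mean. The 12 genes in the upper part, such as Il6 and Nfkbia, are higher in every LPS library, and the 12 in the lower part, such as Mnt and Zfp36l2, lower in every LPS library.

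Members of the LPS receptor and its adaptors moved in both directions. Of 18 genes, 8 rose, 5 fell and 5 did not pass, with a median of 0.08 (log2), against 5 higher, 9 lower and a median of -0.53 on the totals scale. Tlr4 itself fell, from 78, 77.9 and 71.8 CPM to 31.8, 34.1 and 31.3 CPM (log2 fold change -1.23 ± 0.18, adjusted p = 8.5e-06, edgeR's quasi-likelihood test with Benjamini-Hochberg adjustment), with no overlap between the groups. The coreceptor gene Cd14 rose by 1.7 ± 0.18, from 472, 417 and 475 CPM to 1597, 1526 and 1308 CPM. Myd88 held 70.7, 71.5 and 72.2 CPM untreated and 588, 562 and 506 CPM after LPS and rose by 2.95 ± 0.12, whereas Ticam1, which encodes the TRIF adaptor of the interferon arm, held 33.3, 32.6 and 28.6 CPM untreated and 36, 31.5 and 26.9 CPM after LPS and was not called, and Ticam2, which encodes its bridging partner TRAM, fell by 1.11 ± 0.24. Irak2, a kinase of the late MyD88 complex, rose by 2.7 ± 0.23 and Irak3, an inhibitory pseudokinase, by 1.97 ± 0.25, while Irak1 fell (-0.59 ± 0.11) and Irak4 was not called. Sarm1, an inhibitory adaptor, had the largest fall of the list (-1.88 ± 0.52).

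Other Toll-like receptors split as well: of 11 tested, 6 rose, 3 fell and 2 did not pass. Tlr3, the receptor of double-stranded RNA, held 12.8, 12.5 and 18.6 CPM untreated and 424, 456 and 451 CPM after LPS and rose by 4.92 ± 0.36. Tlr2, for bacterial lipoproteins, rose by 4.01 ± 0.18, and its partners Tlr1 and Tlr6 by 1.66 ± 0.2 and 1.21 ± 0.16. Tlr13, which senses bacterial ribosomal RNA, went the other way, from 346, 359 and 315 CPM to 38.7, 35.3 and 54 CPM (-2.99 ± 0.19), as did the flagellin receptor gene Tlr5 (-3.64 ± 0.41) and Tlr12, with 0.131, 0.148 and 0.171 CPM untreated and 0, 0.0296 and 0.0265 CPM after LPS (2 reads in all). Tlr7 and Tlr9, the endosomal receptors for single-stranded RNA and CpG DNA, were not called, with 345, 348 and 243 CPM untreated and 353, 365 and 287 CPM after LPS for Tlr7. Without library 6 the fold moved by over 1.5 times for Tlr5 (-4.37).

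Among 25 kinases and ubiquitin ligases downstream, 15 rose, 4 fell and 6 did not pass (median 0.95). Traf1, an adaptor of TNF receptors, rose by 5.85 ± 0.49, Peli1, a ligase for IRAK kinases, by 4.68 ± 0.21, Map3k8, the kinase that activates ERK after LPS, by 4.04 ± 0.36, and Birc3 and Birc2, the cellular inhibitors of apoptosis, by 3.37 ± 0.25 and 2.59 ± 0.2. Of the kinases for interferon factors, Ikbke rose by 2.24 ± 0.21 and Tbk1 by 1.28 ± 0.16. The p38 branch was split. Mapkapk2 rose (2.14 ± 0.17) while the p38-alpha gene Mapk14 (-1.1 ± 0.16) and the adaptor gene Tab1 (-2.13 ± 0.16) fell. Of its upstream kinase genes, Map2k6 fell (-2.84 ± 0.52) and the other in the list rose (0.95 ± 0.14). Map2k6 held 4.53, 4.3 and 5.44 CPM untreated and 0.537, 0.591 and 0.847 CPM after LPS. Peli2, the paralog of Peli1, also fell (-2.24 ± 0.43).

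All 12 called genes of the 14 NF-kB subunits and inhibitors rose, with a median of 2.64 over the 14. Nfkbia held 50.9, 57 and 61.8 CPM untreated and 1295, 1363 and 1084 CPM after LPS (log2 fold change 4.46 ± 0.36), and Nfkbiz, an atypical IkB that acts in the nucleus, rose by 5.82 ± 0.39. Among the subunits, Nfkb2 rose by 3.63 ± 0.26, Nfkb1 by 3.39 ± 0.2, Rel by 2.84 ± 0.2, Relb by 1.93 ± 0.16 and Rela by 1.02 ± 0.12. Nfkbil1 and Nkiras2 did not pass, with log2 fold changes of 0.59 ± 0.27 and 0.03 ± 0.11.

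Negative regulators that act on mRNA or ubiquitin were divided within gene families. Of 17 tested, 11 rose, 4 fell and 2 did not pass. Zfp36, which encodes tristetraprolin and destabilizes AU-rich cytokine mRNAs, held 60.7, 64.6 and 50.6 CPM untreated and 1728, 1509 and 778 CPM after LPS and rose by 4.51 ± 0.35. Its paralogs fell: Zfp36l2 held 344, 342 and 292 CPM untreated and 17.6, 12.4 and 12.3 CPM after LPS, a change of -4.53 ± 0.39, and Zfp36l1 changed by -2.18 ± 0.29. Groups did not overlap for any of the 3 genes. Zc3h12a and Zc3h12c, which encode the ribonuclease regnase-1 and a relative, rose by 4.35 ± 0.25 and 3.18 ± 0.32, and the Roquin genes Rc3h1 and Rc3h2 by 1.45 ± 0.12 and 1.08 ± 0.11. Tnfaip3, which encodes the ubiquitin editor A20, rose by 7.21 ± 0.45 together with its partners Tnip3 (4.02 ± 0.45) and Tnip1 (3.19 ± 0.25), while the linear-chain deubiquitinase gene Otulin fell (-0.86 ± 0.12).

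Of 8 suppressor of cytokine signalling (SOCS) genes, 5 rose, 2 fell and 1 did not pass. Rises were measured for Socs3 (8.64 ± 0.49), Socs1 (7.71 ± 0.4), Cish (6.09 ± 0.35), Socs2 (4.07 ± 0.36) and Socs7 (2.11 ± 0.2), and falls for Socs5 (-1.43 ± 0.21) and Socs6 (-0.89 ± 0.27), whereas Socs4 held 21.3, 21.1 and 19.8 CPM untreated and 20.9, 20.2 and 18.8 CPM after LPS. The phosphatases that switch off MAP kinases showed the same kind of division, with 7 higher and 3 lower of 11. Dusp1, the main phosphatase of p38 and JNK in macrophages, rose by 5.0 ± 0.29, Dusp2 by 6.91 ± 0.36, Dusp5 by 3.83 ± 0.32 and Dusp16 by 3.41 ± 0.2. The ERK phosphatase genes Dusp6 and Dusp7 changed by -1.51 ± 0.32 and -1.82 ± 0.3 and Dusp3 by -1.73 ± 0.14 on the log2 scale. Dusp6 held 49.9, 60.2 and 79.6 CPM untreated and 28.5, 21 and 17.3 CPM after LPS.

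**Figure D4:**
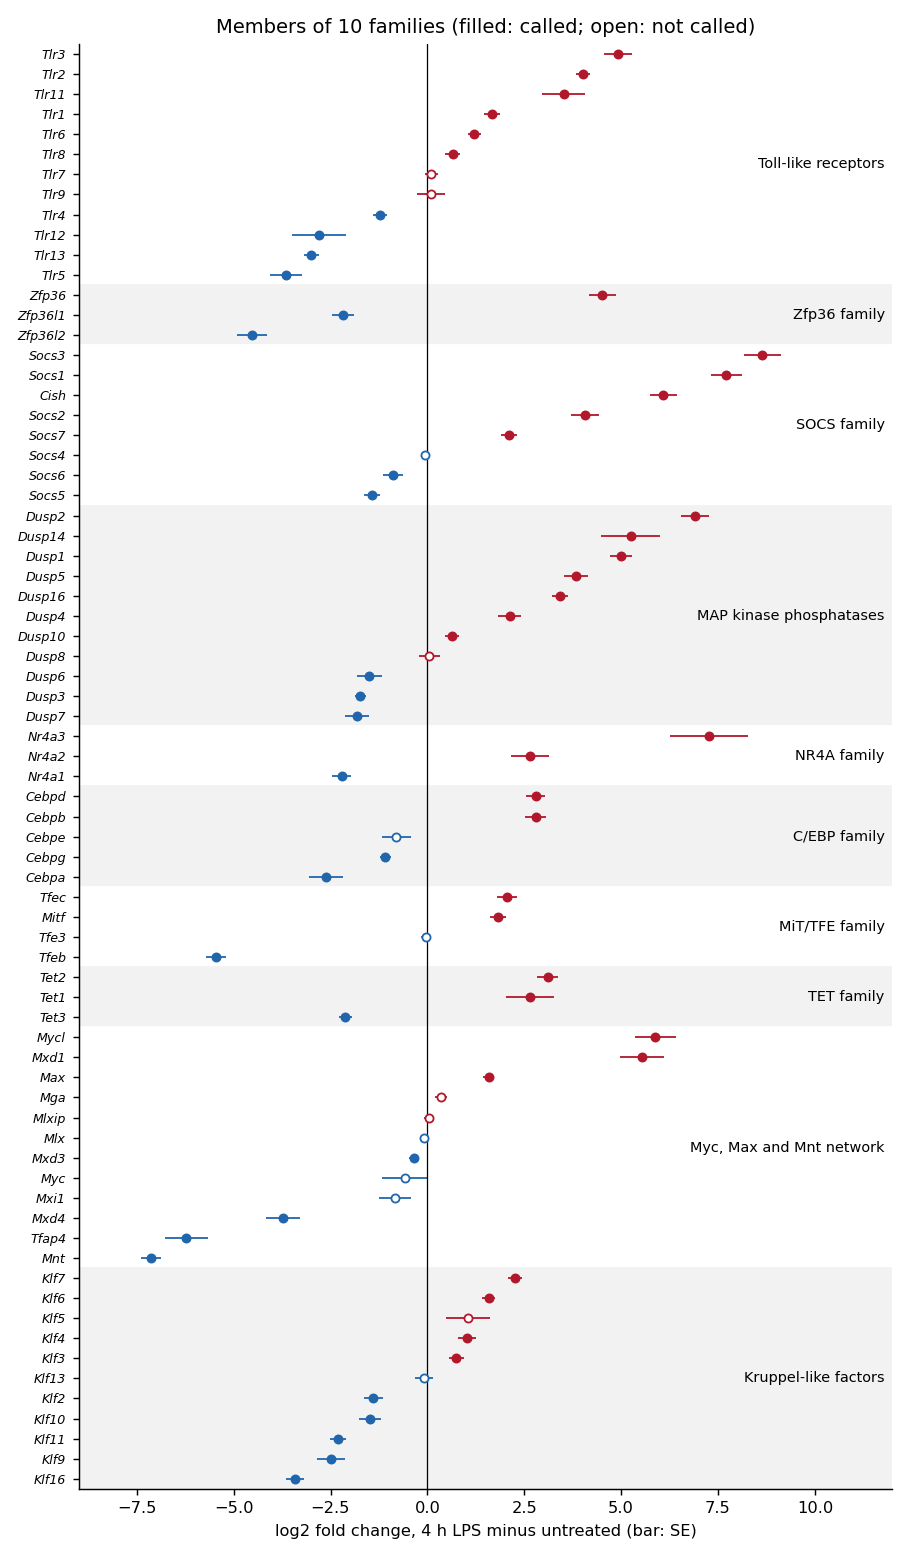
Log2 fold change (LPS minus untreated) of the tested members of 10 gene families or small groups, each point a gene with its SE as a horizontal bar, filled where the gene was called and open where it was not. The families were picked to have members on both sides of 0, such as Zfp36 at 4.51 and Zfp36l2 at -4.53. Groups that moved in a single direction, such as the 18 guanylate-binding proteins and immunity-related GTPases, are not shown.

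Of 15 tested genes of the interleukin-1 family and its receptors, 12 rose, 2 fell and 1 did not pass. Il1b held 0.356, 0.48 and 1.69 CPM untreated and 2872, 2699 and 2210.0 CPM after LPS and Il1a rose by 12.09 ± 1.13, and the gene of the natural antagonist, Il1rn, rose as well (7.98 ± 0.61), to 4760.4, 4714 and 2639.9 CPM. Il18, whose product needs caspase-1 to mature, had a smaller rise (3.49 ± 0.22), and its binding protein gene Il18bp rose by 4.67 ± 0.2. Both genes that fell are receptors: Sigirr, an inhibitory orphan receptor, by -2.67 ± 0.41 and Il1rl1, the receptor of interleukin-33, by -2.01 ± 0.6 (not called without library 3, edgeR adjusted p = 0.051). Il1r1, the signalling receptor of interleukin-1, was not called. The fold moved by over 1.5 times without library 3 for Il1a (12.68) and Il1rn (8.93), and without library 6 for Sigirr (-3.7) and Il1rl1 (-2.85).

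Within the interleukin-6 and interleukin-12 families, the genes that rose were mostly ligands, and the 3 that fell were receptor chains. Il12b rose by 11.90 ± 1.95 and held 166, 225 and 360.3 CPM after LPS, Il27 rose by 7.49 ± 0.6, and Osm by 2.95 ± 0.18. Lif, Il12a and Il23a had at most 2 reads over the untreated libraries together and reached 2.27, 2.1 and 6.67 CPM, 2.36, 2.69 and 7.47 CPM and 1.19, 0.916 and 2.7 CPM, and the receptor gene Osmr, with 2 untreated reads, reached 7.31, 6.68 and 1.4 CPM. Il6ra held 160.2, 176 and 119.7 CPM untreated and 50.2, 45.4 and 23.9 CPM after LPS (-1.93 ± 0.3), Il6st, which encodes the signalling chain gp130, changed by -1.28 ± 0.27 and Lifr by -1.66 ± 0.37. In all, 9 of 16 rose, 3 fell and 4 did not pass. Il10, the gene of an inhibitory cytokine, rose by 6.49 ± 0.81, from 1.31, 1.44 and 0.739 CPM to 112, 133 and 68.8 CPM, and its receptor gene Il10ra by 2.09 ± 0.29. A fold moved by over 1.5 times without library 3 for Il12b (13.50).

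Among 24 tested TNF ligands and receptors, 15 rose, 4 fell and 5 did not pass. Tnf held 12.8, 14.4 and 25.8 CPM untreated and 1285, 1393 and 3301 CPM after LPS, with library 6 at more than the other LPS libraries, and a log2 fold change of 6.82 ± 0.62. Tnfrsf9, which encodes the costimulatory receptor 4-1BB, rose by 8.12 ± 0.88, Tnfsf15 by 8.03 ± 0.68, the death ligand gene Tnfsf10 by 7.55 ± 0.58, Cd40 by 6.97 ± 0.55 and the death receptor gene Fas by 4.8 ± 0.55. The receptor genes of TNF itself, Tnfrsf1b and Tnfrsf1a, rose by 3.58 ± 0.49 and 1.28 ± 0.1. Tnfrsf26, a decoy receptor gene, and the TWEAK gene Tnfsf12 changed by -1.99 ± 0.53 and -1.26 ± 0.22. Among colony-stimulating factors, Csf1 rose by 4.15 ± 0.34, and Csf2 and Csf3, with 1 and 2 untreated reads, reached 2.15, 1.54 and 4.95 CPM and 1.22, 0.798 and 1.06 CPM. The beta chain receptor genes Csf2rb (1.71 ± 0.29) and Csf2rb2 (1.67 ± 0.36), near-identical copies of each other, rose too. With library 3 left out the fold moved by over 1.5 times for Tnfrsf9 (8.82).

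Of 12 CXC genes tested, 8 rose and none fell, and of 13 CC and CX3C genes 11 rose and none fell. Cxcl11 changed by 11.72 ± 1.39 (annotated as a polymorphic pseudogene in mouse), Cxcl10 by 10.12 ± 1.09, Cxcl9 by 9.83 ± 0.96, and the neutrophil chemoattractant genes Cxcl3, Cxcl1 and Cxcl2 by 9.49 ± 0.78, 8.09 ± 0.76 and 6.63 ± 0.6. Cxcl1 held 42.5, 38.2 and 186 CPM after LPS, with library 6 above the other LPS libraries. Ccl2, a monocyte attractant, was uneven before LPS, with 11.4, 11 and 76.1 CPM, and held 1539.6, 1519.8 and 2079.6 CPM after it. Ccl5 rose by 9.39 ± 0.63, Ccl22 by 7.67 ± 1.48, Ccl7 by 7.64 ± 0.72 and Ccl12 by 6.57 ± 0.65, and the membrane-bound chemokine gene Cx3cl1 by 5.4 ± 1.07. Not called were Ccl6, Ccl24, Pf4, Ppbp, Cxcl12 and Cxcl14. The CC list held 0.0844% ± 0.00391 of fragments untreated and 1.65% ± 0.0794 after LPS, and the CXC list 0.0291% ± 0.00565 and 1.26% ± 0.0607. Leaving out library 3 moved the fold by over 1.5 times for Ccl5 (10.24), Ccl22 (9.27), Ccl7 (9.29) and Ccl12 (7.75), and without library 6 for Cxcl9 (9.2), Cxcl1 (6.95), Cxcl2 (5.78) and Cx3cl1 (4.57).

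Chemoattractant receptors moved in both directions, 9 higher and 3 lower of 17 tested. Fpr1 and Fpr2, the receptors of bacterial formyl peptides, rose by 5.64 ± 0.55 and 5.76 ± 0.47, the atypical receptor gene Ccrl2 by 5.99 ± 0.58. Cxcr4, which retains cells in the marrow, held 219, 213 and 105 CPM untreated and 6.48, 4.82 and 2.99 CPM after LPS and fell by 5.23 ± 0.57. Ccr2, the receptor of Ccl2, held 98.5, 108 and 55.2 CPM untreated and 18, 17.1 and 22.4 CPM after LPS (-2.18 ± 0.34), and C5ar2, the second receptor of the complement fragment C5a, changed by -2.51 ± 0.29 while C5ar1 was not called. Cx3cr1 held 183, 222 and 451 CPM untreated and 73.1, 83.1 and 156 CPM after LPS, without overlap of the groups. It was not called (adjusted p = 0.094 with edgeR), but was with a term for the library set (-1.33, edgeR adjusted p = 1.2e-05).

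Of 18 tested genes for type I interferon, interferon receptors, JAK kinases, STAT factors and related genes, 15 rose, 2 fell and 1 did not pass. The list also holds genes of other cytokines, among them both that fell, Ifngr1 and Stat6. Ifnb1 had 1 untreated read and held 8.0, 9.9 and 84 CPM after LPS, highest in library 6. Downstream, Stat2 rose by 3.03 ± 0.25, Irf9 by 1.11 ± 0.09 and Usp18, the brake on interferon receptor signalling, by 5.88 ± 0.48. All JAK kinase genes of the list rose, Jak2 most (4.91 ± 0.53). The interferon-alpha/beta receptor genes Ifnar1 and Ifnar2 rose by 1.4 ± 0.24 and 0.95 ± 0.19. The interferon-gamma receptor was split, Ifngr2 higher by 1.52 ± 0.16 and Ifngr1 lower, from 117, 137 and 79.5 CPM to 37.5, 44.8 and 32 CPM (-1.55 ± 0.25). Stat6, the transducer of interleukin-4, also fell (-0.76 ± 0.1).

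Of 9 interferon regulatory factors and their partners tested, 5 rose, 1 fell and 3 did not pass. Irf7 rose by 4.32 ± 0.3, Irf1 by 3.48 ± 0.25, Irf2 by 2.6 ± 0.14, Irf8 by 2.38 ± 0.21 and Irf5 by 1.36 ± 0.1, while Irf3, which TRIF signalling activates by phosphorylation, held 27.2, 26 and 24.7 CPM untreated and 28.6, 23.6 and 18.6 CPM after LPS. Irf2bp2, a corepressor of IRF2, fell by 2.41 ± 0.21. Of 53 interferon-induced antiviral effectors tested, 50 rose, 1 fell and 2 did not pass, with a median of 3.42 (2.8 on the totals scale). The list held 0.433% ± 0.0643 of fragments untreated and 6.18% ± 0.305 after LPS. The RNA sensor genes Ifih1 and Ddx58 rose by 5.61 ± 0.34 and 3.86 ± 0.26, the dynamin-like Mx1 and Mx2 by 7.05 ± 0.62 and 6.29 ± 0.45, the ubiquitin-like modifier gene Isg15 by 5.61 ± 0.41, and Samhd1, which depletes nucleotides, by 3.03 ± 0.25. The oligoadenylate synthase genes Oas3 and Oas2 rose by 2.43 ± 0.29 and 2.42 ± 0.28. Ifitm1 and Ifitm6 were the 2 that did not pass (1.09 ± 0.68 and 0.64 ± 0.42). All 18 guanylate-binding proteins and immunity-related GTPases rose (median 6.09), among them Iigp1 (8.88 ± 0.73), Gbp2 (7.22 ± 0.58), Igtp (4.81 ± 0.29) and Irgm1 (3.98 ± 0.2). Several Gbp, Ifit, Slfn, Oas1 and Tgtp genes have near-identical copies, so how their reads divide is uncertain.

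**Figure D5:**
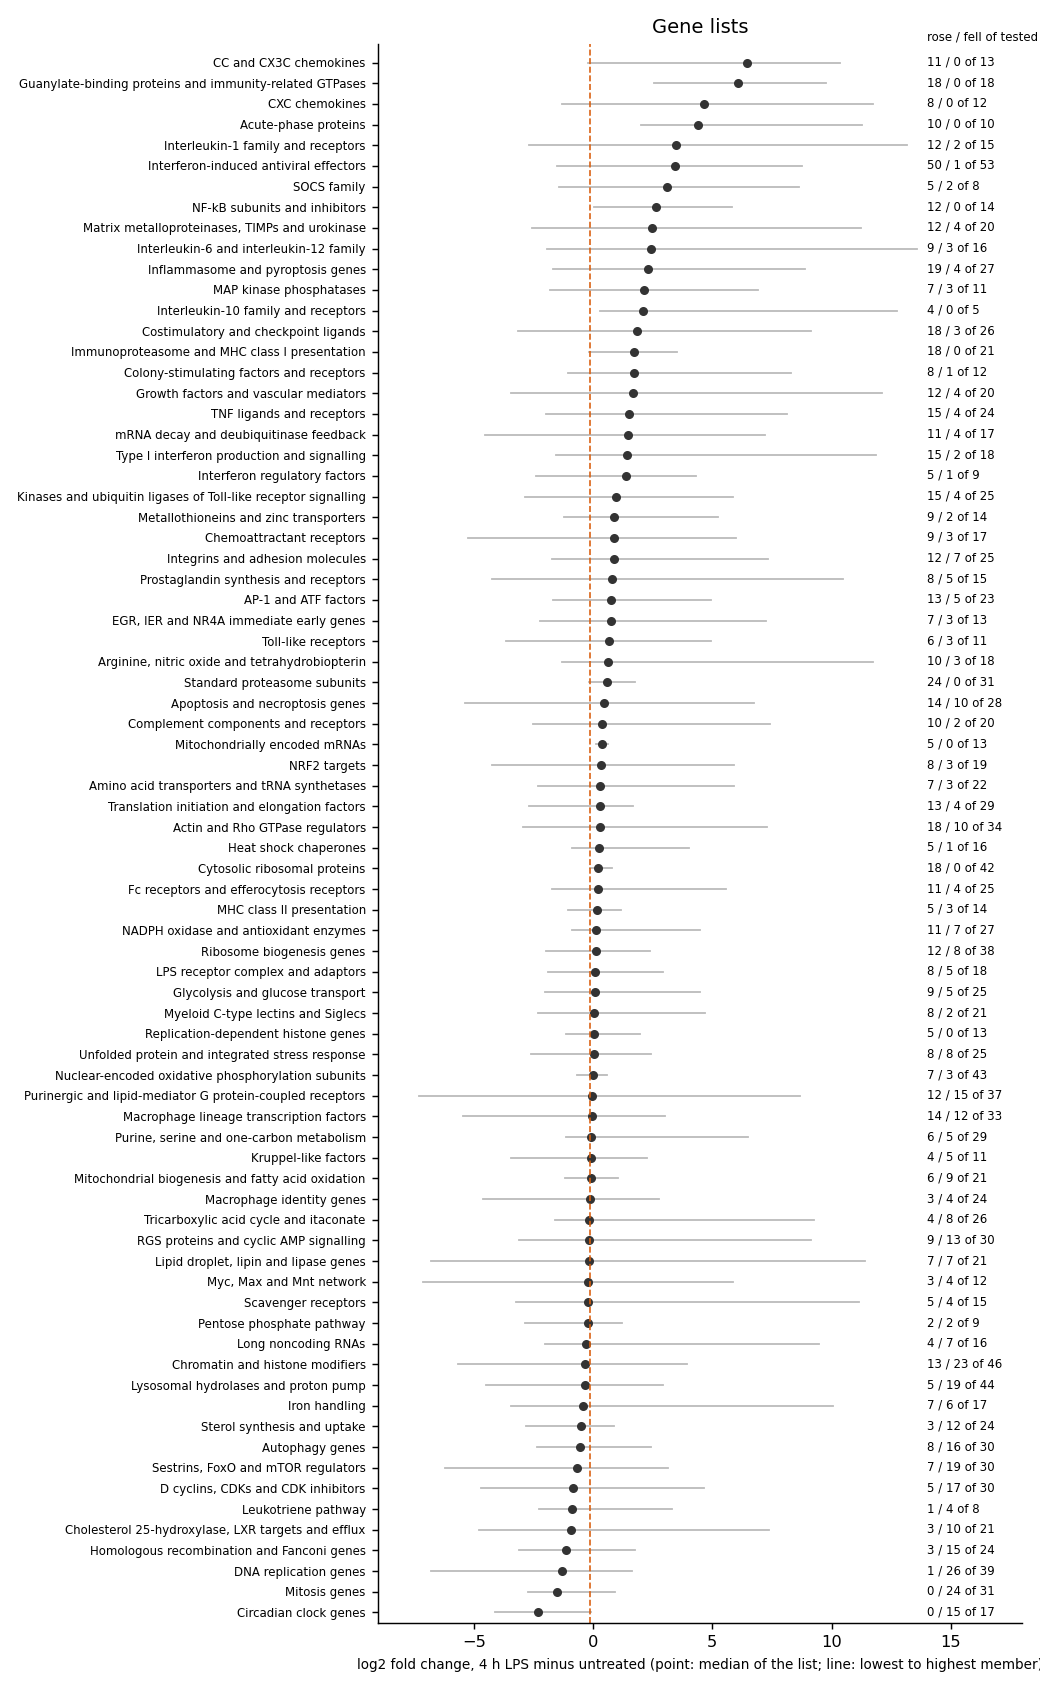
Gene lists ordered by median log2 fold change (LPS minus untreated, TMM scaling): the point is the median of the tested members, the line runs from the lowest to the highest member, and the numbers at the right are the members that rose and fell out of those tested. Guanylate-binding proteins, chemokines and acute-phase genes have the highest medians and clock, mitosis and replication genes the lowest, beside the median over all genes of -0.12 (dashed line).

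Transcription factors of the immediate early response moved in both directions at 4 h. Of 23 AP-1 and ATF genes, 13 rose, 5 fell and 5 did not pass. Batf2 rose by 4.94 ± 0.25, Junb by 3.84 ± 0.18, Fosl2 by 2.87 ± 0.32, Atf3 by 2.66 ± 0.3 and the small Maf genes Maff and Mafk by 2.57 ± 0.35 and 2.54 ± 0.16, while a further small Maf gene, Mafg, fell (-1.65 ± 0.14). Jun, the founding member, was not called at 140.4, 137 and 123 CPM untreated and 184, 193 and 148 CPM after LPS. Jund (-0.68 ± 0.12) and Batf3 (-1.66 ± 0.36), a factor of dendritic cell development, fell. In the NR4A family of orphan nuclear receptors, Nr4a3 held 0.206, 0.0554 and 0.379 CPM untreated and 19.7, 23.9 and 55.7 CPM after LPS and rose by 7.26 ± 1.0, Nr4a2 rose by 2.65 ± 0.48, and Nr4a1 fell, from 5.35, 4.23 and 7.91 CPM to 1.25, 1.12 and 1.38 CPM (-2.22 ± 0.24). Egr1 rose by 3.33 ± 0.47, whereas Egr2 and Egr3 were not called. Kruppel-like factors included the rises of Klf7 (2.26 ± 0.18), Klf6 (1.58 ± 0.16) and Klf4 (1.02 ± 0.24) and the falls of Klf16 (-3.43 ± 0.23), Klf9 (-2.49 ± 0.36), Klf11 (-2.3 ± 0.21), Klf10 (-1.48 ± 0.29) and Klf2 (-1.4 ± 0.25), the last being known to restrain macrophage activation. Folds moved by over 1.5 times without library 3 for Nr4a3 (7.96) and Nr4a2 (3.31), and without library 6 for Nr4a3 (6.66).

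Lineage factors of macrophages moved in opposite directions within families. Of 33 tested, 14 rose, 12 fell and 7 did not pass (10 higher and 18 lower on the totals scale). Cebpb and Cebpd, which are induced in inflammation, rose by 2.79 ± 0.28 and 2.8 ± 0.24, and Cebpa, which drives myeloid differentiation, held 93.3, 98.2 and 46.8 CPM untreated and 19.1, 14.3 and 5.69 CPM after LPS (-2.61 ± 0.44). Of the 4 factors of the MiT/TFE family, which bind the same E-box motif, Tfeb held 64.3, 64 and 43.8 CPM untreated and 1.49, 1.03 and 1.38 CPM after LPS (log2 fold change -5.46 ± 0.26, adjusted p = 1.3e-11, edgeR's quasi-likelihood test with Benjamini-Hochberg adjustment). Mitf rose by 1.81 ± 0.2, Tfec by 2.05 ± 0.26, and Tfe3 was not called at 172, 178 and 166 CPM untreated and 185, 182 and 135 CPM after LPS. Rxra, the partner of many nuclear receptors, changed by -3.67 ± 0.41, Pparg by -2.09 ± 0.42 and Ppard by -1.32 ± 0.15, whereas the LXR genes Nr1h3 and Nr1h2 were not called. Mef2c and Mef2d changed by -2.11 ± 0.26 and -2.56 ± 0.19 and Fli1 by -2.58 ± 0.17. Spi1, which encodes the master regulator PU.1, rose by 0.74 ± 0.12, from 404, 402 and 387 CPM to 771, 699.5 and 528 CPM. Rises were also measured for Prdm1 (3.0 ± 0.29), Hif1a (2.5 ± 0.27), Etv3 (2.13 ± 0.18), Bcl6 (1.72 ± 0.17) and Bach2 (1.7 ± 0.25). Among identity genes, Gpr34, a lysophosphatidylserine receptor of resident macrophages, held 5.71, 8.8 and 1.06 CPM untreated and 0.0896, 0.207 and 0.318 CPM after LPS (-4.62 ± 0.65), and Mertk, a receptor for dying cells, changed by -1.0 ± 0.35 (not called without library 1, 2, 4 or 5, edgeR adjusted p up to 0.078). Without library 2 the fold moved by over 1.5 times for Gpr34 (-4.01).

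No circadian clock gene rose. Of 17 tested, 15 fell and 2 did not pass, with a median of -2.33 beside -0.12 over all genes, and 34.8% of all genes fell. Per1, a repressor of the core clock, held 33.9, 33.6 and 33.2 CPM untreated and 3.02, 2.34 and 2.04 CPM after LPS (-3.77 ± 0.22). Dbp, a direct output of the clock, changed by -4.11 ± 0.48, the heme-binding repressor gene Nr1d1 by -3.46 ± 0.35, Tef by -3.7 ± 0.29, Per3 by -3.36 ± 0.34 and Per2 by -2.81 ± 0.33. The groups did not overlap in 15 of the 17 genes, against 66.9% of all genes tested. The genes of the activating pair were not called: Arntl, which encodes BMAL1, held 10.2, 10.8 and 11.6 CPM untreated and 10.2, 10.8 and 9.82 CPM after LPS, and Clock held 32.9, 33.7 and 35.1 CPM untreated and 30.1, 34.2 and 28.9 CPM after LPS. Nfil3, a repressor that binds the same sites as DBP and TEF, rose by 2.34 ± 0.23. No untreated library exists at 4 h, so time of day and medium change cannot be told apart from LPS here.

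Factors that share the partner Max moved in both directions. Mnt fell, as given above, and Mxd4, another repressor, fell by 3.74 ± 0.44, whereas the repressor gene Mxd1 rose by 5.53 ± 0.57, from 10.4, 11.9 and 6.96 CPM to 512, 543 and 302 CPM. Mycl rose by 5.88 ± 0.53 and Max by 1.58 ± 0.14. Myc itself held 14.5, 15.3 and 45.6 CPM untreated and 21.9, 19.3 and 9.32 CPM after LPS, with library 3 above all others, and was not called (-0.58 ± 0.6). Tfap4, which Myc induces, fell.

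Cell cycle genes were mostly lower. DNA replication genes fell in 26 of 39 cases and rose in 1 (median -1.3), mitosis genes fell in 24 of 31 and rose in none (median -1.53), and genes of homologous recombination fell in 15 of 24 and rose in 3 (median -1.12). Cdc6, which loads the replicative helicase, changed by -3.9 ± 0.85, Uhrf1 by -3.27 ± 0.85, Rrm2, a subunit of ribonucleotide reductase, by -3.04 ± 0.81, and the uracil glycosylase gene Ung by -5.44 ± 0.83. Ung held 5.0, 4.65 and 19 CPM untreated and 0.149, 0.118 and 0.371 CPM after LPS. Mcm10 was the replication gene that rose (1.62 ± 0.64, not called without library 1, 2 or 6, edgeR adjusted p up to 0.13). Among mitotic genes, the transcription factor gene Foxm1 changed by -2.73 ± 0.44, Bub1b by -2.71 ± 0.37 and Cdc20 by -2.46 ± 0.3, while Mki67 was not called at 305, 266 and 379.9 CPM untreated and 185, 246 and 253 CPM after LPS. Library 3 held more of these transcripts than libraries 1 and 2 and library 6 more than libraries 4 and 5: Top2a held 207, 187 and 326 CPM untreated and 69.2, 82.1 and 135 CPM after LPS (not called without library 3, 4 or 5, edgeR adjusted p up to 0.11). Brca1 held 11.1, 11.8 and 27.4 CPM untreated and 1.13, 1.21 and 3.44 CPM after LPS (-3.11 ± 0.64), and Brca2 and Rad51c changed by -2.93 ± 0.55 and -2.88 ± 0.6. The fold moved by over 1.5 times without library 3 for Cdc6 (-2.98), Uhrf1 (-2.39), Rrm2 (-2.3), Ung (-4.46), Mcm10 (2.24) and Rad51c (-2.12), and without library 6 for Cdc6 (-4.58), Uhrf1 (-4.46), Rrm2 (-4.12), Ung (-6.12), Brca1 (-3.83) and Brca2 (-3.7).

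Regulators of the G1 phase moved in both directions, 5 higher and 17 lower of 30. Ccnd2 held 11.5, 14.6 and 43.5 CPM untreated and 531, 593 and 618 CPM after LPS (4.65 ± 0.63), while Ccnd1 held 133, 139 and 428 CPM untreated and 86.4, 80.9 and 64.7 CPM after LPS (-1.59 ± 0.54, not called without library 3 or 6, edgeR adjusted p up to 0.18). The inhibitor gene Cdkn1a rose by 4.07 ± 0.37 whereas Cdkn1b and Cdkn2c changed by -1.16 ± 0.16 and -2.6 ± 0.33. E2f2 changed by -4.69 ± 0.37, E2f7 by -2.86 ± 0.66, E2f1 by -2.23 ± 0.54 and Cdk2 by -2.68 ± 0.3. E2f5 and the pocket protein gene Rbl1 rose by 1.56 ± 0.23 and 1.38 ± 0.39, and the related genes Rb1 and Rbl2 changed by -1.78 ± 0.18 and -2.27 ± 0.15. A fold moved by over 1.5 times without library 3 for Ccnd2 (5.47) and Ccnd1 (-0.81), and without library 6 for E2f1 (-3.09).

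Of 46 chromatin regulators, 13 rose, 23 fell and 10 did not pass, beside 28.2% higher and 34.8% lower of all genes tested. The 3 TET enzymes, which oxidize methylcytosine, were split: Tet2 rose by 3.1 ± 0.27 and Tet1 by 2.64 ± 0.62, and Tet3 fell by 2.12 ± 0.17. Dnmt1, the maintenance DNA methyltransferase gene, fell by 2.69 ± 0.39. Kdm6b, which encodes the histone H3 lysine 27 demethylase JMJD3, rose by 2.08 ± 0.26, and Ezh2, a methyltransferase of the same residue, fell by 1.47 ± 0.38. Setdb2 rose by 3.9 ± 0.29 and Arid5a, which stabilizes Il6 mRNA, by 3.94 ± 0.3. Among histone deacetylases, Hdac5 held 112, 107 and 91.9 CPM untreated and 11.2, 11.6 and 15.9 CPM after LPS (-3.01 ± 0.3), Hdac7 fell by 2.06 ± 0.32 and Hdac11 went from 0.768, 0.793 and 0.322 CPM to 0, 0.0296 and 0 CPM (1 read in all), while Hdac1 rose by 1.8 ± 0.24. The Polycomb genes Cbx2, Cbx6 and Cbx7 changed by -4.17 ± 0.4, -3.74 ± 0.25 and -2.14 ± 0.24.

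Among 16 long noncoding RNAs, Mir155hg, the host transcript of miR-155, went from 0, 0.0554 and 0.0379 CPM to 26, 25 and 21.3 CPM (9.46 ± 1.0), and Ptgs2os2, transcribed next to Ptgs2, rose by 4.69 ± 0.62. Malat1, among the most abundant nuclear RNAs, was not called. The small nucleolar RNA host genes Snhg15, Snhg12, Snhg5 and Snhg1 changed by -2.0 ± 0.26, -1.62 ± 0.23, -1.07 ± 0.28 and -1.03 ± 0.27. With library 2 left out the fold moved by over 1.5 times for Mir155hg (10.10), and without library 3 for Ptgs2os2 (6.34).

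Among glycolysis genes, those that rose included carriers and enzymes of the early steps. Of 25 tested, 9 rose, 5 fell and 11 did not pass (median 0.07), against 9 higher and 12 lower on the totals scale (median -0.56). Pfkfb3, which makes the activator of phosphofructokinase, held 42.1, 44.1 and 32.2 CPM untreated and 1112, 1109.8 and 429 CPM after LPS (4.48 ± 0.48). Hk2, a hexokinase gene, rose by 3.6 ± 0.3, the lactate carrier gene Slc16a1 by 3.07 ± 0.42, Slc2a6 by 2.74 ± 0.36, and the glucose carrier gene Slc2a1 by 1.68 ± 0.39. Slc2a3 changed by -2.03 ± 0.33 and Pfkfb4 by -1.83 ± 0.16. Most enzymes of the later steps were not called, among them Gapdh (150.4, 162 and 276 CPM untreated and 152, 138 and 174 CPM after LPS), Ldha (321, 291 and 478 CPM untreated and 434, 384 and 428 CPM after LPS), Pkm, Eno1 and Pgk1. In the pentose phosphate pathway, Shpk, which encodes the sedoheptulose kinase CARKL, fell by 2.88 ± 0.25, and G6pdx was not called. Leaving out library 6 moved the fold by over 1.5 times for Slc2a3 (-2.68).

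Of 26 genes around the tricarboxylic acid cycle, 4 rose, 8 fell and 14 did not pass. Acod1, which diverts cis-aconitate to itaconate, held 8.65, 10.3 and 35.7 CPM untreated and 11382, 12030.2 and 10398 CPM after LPS (9.27 ± 0.87), Dld rose by 1.06 ± 0.1, and Idh1, the cytosolic isocitrate dehydrogenase gene, held 151, 157 and 103 CPM untreated and 41.2, 47.7 and 45.8 CPM after LPS (-1.61 ± 0.24). Sdha, the target of itaconate, was not called at 170.4, 169 and 165 CPM untreated and 148, 156 and 155 CPM after LPS. Nuclear-encoded subunits of oxidative phosphorylation were not called in 33 of 43 cases, with 7 higher and 3 lower and a median of 0.01, and on the totals scale none was higher and 34 were lower (median -0.6). The 13 mitochondrially encoded mRNAs gave 5 higher and none lower (median 0.36), against none higher and 4 lower on the totals scale. Folds moved by over 1.5 times without library 3 for Acod1 (10.21).

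Of 18 genes for arginine, nitric oxide and tetrahydrobiopterin, 10 rose, 3 fell and 5 did not pass. Nos2, the inducible synthase gene, held 0.431, 0.498 and 2.41 CPM untreated and 4423, 4259 and 2725 CPM after LPS (11.74 ± 1.36), with library 6 the lowest of the LPS libraries. The arginine carrier gene Slc7a2 rose by 7.64 ± 1.06, Gch1, which starts the synthesis of the cofactor tetrahydrobiopterin, by 3.52 ± 0.24, and Ass1, which regenerates arginine from citrulline, held 8.33, 7.38 and 52.1 CPM untreated and 231, 237 and 294 CPM after LPS (3.49 ± 0.62). Arg2 and the polyamine enzyme gene Odc1 rose by 3.29 ± 0.41 and 3.32 ± 0.34. Spr, the last enzyme of tetrahydrobiopterin synthesis, fell by 1.29 ± 0.23. Without library 3 the fold moved by over 1.5 times for Nos2 (12.99) and Ass1 (5.01).

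Sterol and fatty acid synthesis genes fell in part. Of 24 sterol genes tested, 3 rose, 12 fell and 9 did not pass (median -0.49). Dhcr7, which makes cholesterol from 7-dehydrocholesterol, held 44.4, 47.1 and 74 CPM untreated and 6.45, 5.59 and 11.5 CPM after LPS (-2.81 ± 0.35), Stard4 changed by -2.51 ± 0.29, Mvd by -2.0 ± 0.2 and Lss by -1.85 ± 0.21. Ch25h, which makes 25-hydroxycholesterol, rose by 7.38 ± 0.74, from 9.45, 10 and 40.2 CPM to 3806, 3235 and 2893 CPM. Among targets of LXR, Abca1, a cholesterol exporter gene, rose by 0.7 ± 0.24 (not called without library 3, 4 or 5, edgeR adjusted p up to 0.078), Mylip and Apoe were not called, and Abcg1, Srebf1 and Fasn changed by -1.41 ± 0.15, -1.62 ± 0.16 and -1.79 ± 0.38. Scd2, a stearoyl-CoA desaturase gene, held 366, 359.7 and 771 CPM untreated and 13.4, 11.2 and 29.9 CPM after LPS (-4.78 ± 0.68), while Scd1 was not called. Lpin1 changed by -6.8 ± 0.53 and Acsl3 by -2.45 ± 0.27, against rises of Dgat2 (3.56 ± 0.54), Acsl1 (2.29 ± 0.46) and Lipg. The fold moved by over 1.5 times without library 3 for Ch25h (8.41) and Fasn (-1.16), and without library 6 for Lpin1 (-7.63).

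Prostaglandin genes gave 8 higher and 5 lower of 15 tested (6 and 6 on the totals scale). Ptgs2, the inducible cyclooxygenase gene, rose by 10.47 ± 0.98, and Ptges, the inducible prostaglandin E synthase gene, held 1.22, 1.05 and 3.05 CPM untreated and 406, 387 and 66.1 CPM after LPS (7.33 ± 1.05). Ptgs1, the constitutive cyclooxygenase gene, changed by -1.41 ± 0.42, the prostaglandin D synthase gene Hpgds by -1.43 ± 0.21, and Hpgd, which inactivates prostaglandins, held 107, 119 and 86.2 CPM untreated and 10.6, 13.1 and 17 CPM after LPS (-2.94 ± 0.44). Receptors for prostaglandin E2 were split, Ptger2 and Ptger4 higher (2.03 ± 0.23 and 1.61 ± 0.19) and Ptger3 lower (-4.23 ± 0.7). In the leukotriene pathway 4 of 8 tested genes fell, Alox5 by -0.98 ± 0.37 (not called without library 2, 3, 4 or 5, edgeR adjusted p up to 0.12), Lta4h by -0.97 ± 0.11, Alox5ap by -0.81 ± 0.15 and the leukotriene B4 receptor gene Ltb4r1 by -2.26 ± 0.73 (not called without library 6, edgeR adjusted p = 0.052), and Cysltr2 rose (3.3 ± 0.42). A fold moved by over 1.5 times without library 3 for Ptgs2 (11.57) and Ptges (7.97), and without library 6 for Ptger3 (-4.86).

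Of 30 sestrins, FoxO factors and regulators of the kinase mTOR, 7 rose, 19 fell and 4 did not pass (median -0.67). Beside Sesn1, Sesn2 fell by 1.65 ± 0.16 and Sesn3 rose by 1.38 ± 0.37. Foxo3 held 79.2, 84.6 and 56.9 CPM untreated and 13.1, 9.99 and 8.34 CPM after LPS (-2.81 ± 0.23) and Foxo4 fell by 2.07 ± 0.23. Tsc22d3, which encodes the glucocorticoid-induced GILZ, changed by -3.6 ± 0.27, Inpp5d, the lipid phosphatase SHIP1 of blood cells, by -2.83 ± 0.15, Castor2, an arginine sensor gene, by -2.69 ± 0.23, and Deptor by -1.94 ± 0.37. In the other direction, Trib1 rose by 3.13 ± 0.3, Ddit4, an mTORC1 inhibitor, by 2.94 ± 0.55 and Rictor by 1.88 ± 0.19. Translation factors included falls of Eif4ebp2 (-2.68 ± 0.16), Pdcd4 (-2.66 ± 0.38) and Eef2k (-2.31 ± 0.36), 3 brakes on translation, and 13 of the 29 rose, among them Eif4g2 (1.68 ± 0.18) and Eif6 (1.43 ± 0.13), with 4 lower in all (median 0.3). On the totals scale 4 were higher and 14 lower (median -0.31). Eif4ebp2 held 235, 262 and 188 CPM untreated and 37.5, 33.6 and 35.5 CPM after LPS.

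The direction of ribosomal protein genes depends on the scaling. Of 42 cytosolic ribosomal proteins, 18 rose and none fell, with a median of 0.22, and on the totals scale none rose and 37 fell (median -0.39). The range over the 42 was -0.15 to 0.79. Of 38 ribosome biogenesis genes, 12 rose, 8 fell and 18 did not pass (median 0.13), with Wdr43 highest (2.37 ± 0.2) and Gnl3 lowest (-1.99 ± 0.24), against 4 higher and 20 lower on the totals scale (median -0.48). Amino acid carriers were mixed: Slc7a11, the cystine carrier gene, rose by 5.91 ± 0.49 and Slc15a3 by 2.97 ± 0.22, and Slc38a2 fell by 2.3 ± 0.18. The uridine phosphorylase gene Upp1 rose by 6.48 ± 0.63, Pnp by 3.31 ± 0.19 and Nampt, which starts the salvage of NAD, by 2.67 ± 0.17. Enzymes of serine synthesis (Phgdh, Psat1 and Psph) were not called.

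Of 31 standard proteasome subunits, 24 rose and none fell (median 0.57), and on the totals scale 6 rose and 8 fell. Psma6 (1.78 ± 0.13) and Psma5 (1.45 ± 0.12) had the largest changes. Antigen presentation on class I molecules rose further, in 18 of 21 genes with none lower (median 1.73): Nlrc5, the activator of class I genes, by 3.52 ± 0.29, the peptide transporter gene Tap1 by 3.29 ± 0.21, Tapbp by 2.34 ± 0.21, and the immunoproteasome genes Psmb10, Psmb9 and Psmb8 by 2.32 ± 0.12, 2.12 ± 0.19 and 1.73 ± 0.15. Calr, Canx and Pdia3, chaperones of the same pathway, were not called. Class II genes were mixed, 5 higher and 3 lower of 14 (2 and 5 on the totals scale). Cd74 and H2-Ab1 rose by 1.16 ± 0.33 and 1.18 ± 0.24, H2-DMb2 fell by 1.07 ± 0.26, and Ciita, the activator of class II genes, held 5.05, 7.18 and 3.66 CPM untreated and 4.99, 4.7 and 4.77 CPM after LPS.

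Of 26 costimulatory and checkpoint ligands, 18 rose and 3 fell. Cd274, which encodes PD-L1, rose by 6.42 ± 0.48, Cd86 by 3.94 ± 0.27, Slamf7 by 3.66 ± 0.39 and Icosl by 2.39 ± 0.39. The 3 that fell were Vsir, which encodes the checkpoint receptor VISTA and held 389, 451 and 220.0 CPM untreated and 35.6, 40.8 and 42.2 CPM after LPS (-3.16 ± 0.36), Sirpa (-1.73 ± 0.17) and Cd200r1 (-1.0 ± 0.41, not called without library 1, 2, 4 or 6, edgeR adjusted p up to 0.14). Sirpa encodes the receptor for the signal CD47, which inhibits phagocytosis, and held 1803, 1810.1 and 1438 CPM untreated and 498, 531 and 496 CPM after LPS. Cd47 itself rose by 2.25 ± 0.18, from 97.9, 102 and 110.3 CPM to 492, 494 and 489 CPM.

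Uptake receptors were likewise divided. Msr1, a scavenger receptor gene, rose by 2.54 ± 0.29, while Cd163, the receptor of haptoglobin-bound hemoglobin, held 24.7, 29.1 and 15.6 CPM untreated and 2.21, 2.66 and 2.59 CPM after LPS (-3.21 ± 0.54), Scarb1 fell by 1.18 ± 0.19 and Cd36 was not called. Among C-type lectins, Clec4e, which encodes Mincle, rose by 4.69 ± 0.47 and Clec7a, the beta-glucan receptor dectin-1, held 99.3, 99.5 and 38.9 CPM untreated and 81.1, 96.1 and 55.5 CPM after LPS with no call. The antibody receptor genes Fcgr4, Fcgr2b and Fcgr1 rose by 3.55 ± 0.3, 3.04 ± 0.35 and 2.76 ± 0.19, and Fcgr3 was not called. Of the TAM receptors for dying cells, Tyro3 and Axl rose by 4.52 ± 0.64 and 1.61 ± 0.27 and Mertk fell. Complement genes that rose included Cfb (7.4 ± 0.37), which held 2.47, 2.25 and 4.47 CPM untreated and 596, 597 and 357 CPM after LPS, C3 (3.12 ± 0.46) and C4b (1.93 ± 0.36), whereas C1qa, C1qb and C1qc were not called. With library 3 left out the fold moved by over 1.5 times for Tyro3 (5.69).

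G protein-coupled receptors for purines and lipids moved in both directions, 12 higher and 15 lower of 37 tested, beside 28.2% and 34.8% of all genes. All 3 adenosine receptor genes of the list rose, Adora2a most (8.68 ± 0.83, from 0.131, 0.24 and 0.133 CPM to 69.8, 67.5 and 73.6 CPM), followed by Adora2b (4.75 ± 0.45) and Adora3 (4.2 ± 0.48). Gpr84, a receptor for medium-chain fatty acids, rose by 6.05 ± 0.76, Hcar2, for niacin and butyrate, by 5.37 ± 0.73, and Lpar1 by 6.0 ± 0.49. Receptors that fell included Cnr2, the cannabinoid receptor of immune cells (-7.31 ± 0.56), Lpar5 (-6.58 ± 0.43), Gpr183, which follows oxysterols made from the product of Ch25h and held 35.7, 39.9 and 41.5 CPM untreated and 2.42, 2.04 and 2.38 CPM after LPS (-4.1 ± 0.32), P2ry1 (-3.96 ± 0.35), S1pr1 (-3.27 ± 0.38), which guides exit into blood, and the ATP channel gene P2rx7 (-2.21 ± 0.17). Downstream, Rgs16, which shortens G protein signals, rose by 9.12 ± 0.65 and the phosphodiesterase gene Pde4b by 5.29 ± 0.26, while Rgs2, Rgs18 and Pde3b changed by -1.66 ± 0.25, -1.87 ± 0.35 and -1.27 ± 0.39. Leaving out library 3 moved the fold by over 1.5 times for Gpr84 (7.3) and Lpar1 (6.81), and without library 6 for Rgs18 (-2.46).

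Of 27 genes of inflammasomes and pyroptosis, 19 rose, 4 fell and 4 did not pass (median 2.29). Casp4, the murine caspase-11 gene that senses cytosolic LPS, held 6.08, 1.44 and 6.48 CPM untreated and 112, 62.4 and 81.8 CPM after LPS (4.19 ± 0.66). Ifi205 rose by 8.9 ± 0.63, Nod1 by 4.85 ± 0.54, Mefv by 4.68 ± 0.26, Nod2 by 4.57 ± 0.35, Aim2 by 3.3 ± 0.22, Nlrp3 by 2.89 ± 0.17, Casp1 by 2.65 ± 0.26 and the pore gene Gsdmd by 1.4 ± 0.15. Pycard, which encodes the adaptor ASC, held 48.8, 48.3 and 47.6 CPM untreated and 51.9, 48.5 and 52.8 CPM after LPS and was not called. Card9, Gsdme, Nlrp1b and Txnip changed by -1.69 ± 0.13, -1.41 ± 0.2, -1.14 ± 0.25 and -1.12 ± 0.24.

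Genes of apoptosis gave 14 higher and 10 lower of 28 tested (11 and 12 on the totals scale). Survival genes of the Bcl2a1 group rose, Bcl2a1d by 6.4 ± 0.57 and Bcl2a1b by 3.49 ± 0.29 (near-identical copies), and Cflar, which blocks caspase-8, by 3.89 ± 0.28. Other survival genes fell, Bcl2 by -2.38 ± 0.45 and Bcl2l1 by -1.2 ± 0.16. Among killers, Bmf held 32.3, 31.9 and 9.93 CPM untreated and 0.478, 0.562 and 0.715 CPM after LPS (-5.39 ± 0.6), Pmaip1 changed by -2.45 ± 0.25 and Casp9, of the mitochondrial route, by -2.09 ± 0.1, while the extrinsic and necroptotic genes Casp8 (1.96 ± 0.14) and Mlkl (3.26 ± 0.27) rose. Fadd, the adaptor of death receptors, fell by 1.27 ± 0.15, and Ripk3 was not called. Folds moved by over 1.5 times without library 6 for Bcl2 (-3.13).

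Of 27 genes for making or removing oxidants, 11 rose and 7 fell, against 6 and 12 on the totals scale. Sod2, the mitochondrial superoxide dismutase gene, held 45.6, 50.4 and 55 CPM untreated and 1281, 1226 and 830.1 CPM after LPS (4.47 ± 0.5), Cybb, the catalytic subunit of the phagocyte oxidase, rose by 2.08 ± 0.3, Prdx5 by 2.14 ± 0.19 and Txnrd1 by 1.49 ± 0.17. Catalase (-0.89 ± 0.23) and the selenoprotein genes Gpx4 (-0.71 ± 0.12) and Gpx1 (-0.63 ± 0.11) fell. Targets of the oxidant sensor NRF2 did not move as a block, 8 higher and 3 lower of 19 (4 and 8 on the totals scale): Slc7a11 rose, Nqo1 held 3.43, 3.54 and 3.53 CPM untreated and 3.16, 3.19 and 4.05 CPM after LPS, Hmox1 was not called, and Gclc and Osgin1 changed by -1.12 ± 0.23 and -4.24 ± 0.31.

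Of 17 iron genes tested, 7 rose and 6 fell (5 and 11 on the totals scale). Slc40a1, the sole cellular iron exporter, held 119.9, 156 and 48.2 CPM untreated and 10.6, 11.3 and 8.08 CPM after LPS (-3.44 ± 0.56), and Ncoa4, which delivers ferritin for breakdown, fell by 1.67 ± 0.23. The ferritin heavy chain gene Fth1 rose by 0.92 ± 0.18 while the light chain gene Ftl1 fell by 0.75 ± 0.14. Slc11a2, an iron importer gene, rose by 2.52 ± 0.19, Cp, which oxidizes iron, by 4.28 ± 0.46, and Lcn2, which binds bacterial siderophores, by 3.6 ± 0.38. Hamp, the hormone hepcidin, had 4 untreated reads and 0.717, 0.68 and 1.14 CPM after LPS, and Tfrc, the transferrin receptor gene, was not called. Mt2 and the zinc importer gene Slc39a14 rose by 5.24 ± 0.55 and 3.25 ± 0.42. All 10 tested acute-phase genes rose, Saa3 to 2430.1, 2225 and 952 CPM (9.04 ± 0.8). Without library 3 the fold moved by over 1.5 times for Saa3 (10.57).

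Of 16 heat shock genes tested, 5 rose and 1 fell (3 and 8 on the totals scale), beside 28.2% of all genes that rose. Hspa1b and Hspa1a, near-identical copies, rose by 4.0 ± 0.27 and 2.8 ± 0.27, while Hspd1 and Hsph1 were among the 10 that did not pass. Of 25 genes of the unfolded protein and integrated stress responses, 8 rose and 8 fell (3 and 17 on the totals scale). Hspa5, the main chaperone of the endoplasmic reticulum, rose by 1.4 ± 0.18, and Ppp1r15b and Ppp1r15a, which reverse the phosphorylation of eIF2-alpha, by 2.43 ± 0.18 and 1.76 ± 0.28. Eif2ak3, which encodes the kinase PERK of the same switch, held 33.4, 33.9 and 27.8 CPM untreated and 4.93, 5.53 and 4.98 CPM after LPS (-2.62 ± 0.16), and Ddit3, Trib3, Atf4 and Ern1 changed by -1.48 ± 0.2, -1.63 ± 0.38, -0.74 ± 0.19 and -0.89 ± 0.15. The fold moved by over 1.5 times without library 3 for Trib3 (-0.92).

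Of 30 autophagy genes, 8 rose, 16 fell and 6 did not pass (median -0.53). The cargo receptor genes Optn, Tax1bp1 and Sqstm1 rose by 2.43 ± 0.23, 2.27 ± 0.26 and 1.85 ± 0.24, while a further cargo receptor gene, Nbr1, fell by 1.15 ± 0.17. Ulk1, the kinase that starts autophagy, held 57.8, 63.1 and 31.9 CPM untreated and 9.88, 9.55 and 10.9 CPM after LPS (-2.33 ± 0.26). Ulk2 changed by -1.52 ± 0.12, Atg2a by -1.65 ± 0.22, Uvrag by -1.52 ± 0.12, Atg14 by -1.4 ± 0.18 and the LC3 and GABARAP genes Map1lc3b and Gabarapl1 by -1.01 ± 0.22 and -1.24 ± 0.26. Of 44 lysosomal genes, 5 rose, 19 fell and 20 did not pass (median -0.34). Sgsh, the sulfamidase that degrades heparan sulfate, held 127, 129 and 75.1 CPM untreated and 4.51, 5.29 and 4.95 CPM after LPS (-4.49 ± 0.27), and Smpd1, the acid sphingomyelinase gene, changed by -1.84 ± 0.14, Neu1 by -1.21 ± 0.14 and Lipa by -0.97 ± 0.14. Ctsc and Clcn7 rose by 2.91 ± 0.14 and 1.98 ± 0.17. The abundant members Ctsb (11404, 11415 and 8506 CPM untreated and 11516, 11027 and 8655 CPM after LPS), Ctsd and Lamp1 were not called. As a share of fragments the lysosomal list held 4.97% ± 0.821 untreated and 3.05% ± 0.23 after LPS.

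Adhesion genes rose in 12 of 25 cases and fell in 7. Icam1 held 51.8, 64.2 and 63.6 CPM untreated and 1158, 1377 and 1698 CPM after LPS (4.56 ± 0.49), its integrin chain gene Itgal rose by 3.54 ± 0.41, Vcam1 by 5.02 ± 0.27, and Itgb8, whose product activates TGF-beta, by 7.31 ± 0.91. The fibronectin receptor genes Itga5 and Itga4 rose by 2.7 ± 0.3 and 2.41 ± 0.32, whereas Itgam and Itgb2, the chains of complement receptor 3, were not called, and Itga6 and Itgb3 changed by -1.34 ± 0.25 and -1.73 ± 0.3. In the actin group, Rnd1 rose by 7.29 ± 0.42, the bundling protein gene Fscn1 by 5.77 ± 0.83, the formin gene Fmnl2 by 4.95 ± 0.27 and Marcksl1 by 4.08 ± 0.22, and Fgd4, Arhgap9 and Arhgef6 changed by -2.94 ± 0.18, -2.26 ± 0.2 and -1.81 ± 0.23. Was, which encodes the Wiskott-Aldrich protein that nucleates actin at podosomes, and Coro1a changed by -1.03 ± 0.1 and -1.07 ± 0.24. A fold moved by over 1.5 times without library 3 for Itgal (4.13), Itgb8 (8.45) and Fscn1 (6.76).

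Proteases of the matrix were split within a family. Mmp13 held 4.16, 5.96 and 6.31 CPM untreated and 1387, 1574 and 796 CPM after LPS (7.84 ± 0.45), Mmp14 rose by 6.05 ± 0.49, Mmp25 by 7.51 ± 0.28 and Mmp12 by 2.41 ± 0.27, while Mmp9 held 4.46, 8.64 and 6.48 CPM untreated and 0.985, 1.3 and 1.01 CPM after LPS (-2.57 ± 0.37) and Mmp8 was not called. The inhibitor gene Timp1 held 171, 119 and 36.7 CPM after LPS and rose by 8.55 ± 1.15. In the plasmin system, the receptor gene Plaur (3.4 ± 0.24) rose and Plau, the urokinase gene, fell (-1.94 ± 0.58, not called without library 3, edgeR adjusted p = 0.11). Coagulation genes were called in both directions. F3, which encodes tissue factor, rose by 7.96 ± 0.66, F10 by 3.91 ± 0.55, and Thbd, the anticoagulant thrombomodulin, fell from 8.82, 8.56 and 7.77 CPM to 0.627, 0.709 and 0.98 CPM (-3.43 ± 0.46). Among growth factors, Inhba rose by 6.41 ± 0.6, Hbegf by 5.09 ± 0.6 and Pdgfb by 3.3 ± 0.36, Gdf15 fell by 2.66 ± 0.32, and Vegfa held 18.9, 17.2 and 12.5 CPM untreated and 41.4, 33.9 and 9.27 CPM after LPS with no call, library 6 being below the other LPS libraries. With library 3 left out the fold moved by over 1.5 times for Mmp14 (6.73), Plau (-0.99), Inhba (7.09) and Hbegf (5.8).

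Markers of other cell types that a marrow culture could hold were low in most cases. The summed level of 17 neutrophil and precursor markers was 151 to 182 CPM untreated and 114 to 143 CPM after LPS, and that of 20 T, B and NK cell markers 112 to 153 CPM and 34.8 to 46.0 CPM, with no read for Gzma, Gzmb, Ncr1 and Prf1 in any of the 6 libraries. Of 9 of these tested, 4 rose and 2 fell: Ighm, an antibody chain gene, held 133, 144 and 107 CPM untreated and 13.9, 18.8 and 25.6 CPM after LPS, and Lck, a kinase gene of T cell receptor signalling, 0.449, 0.517 and 0.853 CPM untreated and 14.7, 14.8 and 16.4 CPM after LPS. Ighm made up most of the untreated T, B and NK sum, with 133.5 of 141.8 CPM in library 1. Mast, basophil, eosinophil and megakaryocyte markers held 31.0 to 46.3 CPM untreated and 41.2 to 77.2 CPM after LPS, with Fcer1a, Mcpt4 and Ms4a2 at 0. Most of that sum was Pf4, with 33.9, 43.7 and 28.4 CPM untreated and 52.0, 72.8 and 38.2 CPM after LPS. A further 3 lists had higher sums after LPS, carried by a few members each. Of 12 dendritic cell markers tested, 5 rose and 2 fell (median -0.36). Among those that fell was Batf3, with 1.27, 1.31 and 1.93 CPM untreated and 0.239, 0.621 and 0.556 CPM after LPS. Dendritic cell markers went from 90.6 to 142 CPM to 374 to 384 CPM, with Bst2, an interferon-induced gene, from 103, 81.4 and 131 CPM to 316, 302 and 304 CPM, Fscn1, and Xcr1, the receptor of cross-presenting dendritic cells, which held 0.0749, 0.166 and 0.284 CPM untreated and 16.5, 19.4 and 28.6 CPM after LPS (6.92 ± 0.68), while the defining gene Zbtb46 stayed at 0.0936, 0.0554 and 0.265 CPM untreated and 0.0896, 0.148 and 0.0794 CPM after LPS. Fibroblast markers went from 5.57 to 20.1 CPM to 77.7 to 92.7 CPM, carried by Pdgfrb (0.505, 0.369 and 0.246 CPM untreated and 39.1, 36.2 and 27.1 CPM after LPS) and Fn1, while Col1a1 held 0.693, 0.738 and 0.929 CPM untreated and 0.806, 1.57 and 0.556 CPM after LPS. Endothelial and erythroid markers went from 40.3 to 59.5 CPM to 142 to 146 CPM, with Kdr (2.87 ± 0.2) and Cdh5 (4.69 ± 0.36) higher. The part of other cells in the results above was not tested beyond these values. Leaving out library 3 moved the fold by over 1.5 times for Cdh5 (5.28).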

How the data were processed

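Total RNA from wild-type and Selenow knock-out macrophages, untreated or after 4, 8 or 24 h of LPS, was sequenced as read pairs, giving 23 libraries in 8 groups, and 6 of them are compared here. The deposited values are raw gene counts, which the authors made with featureCounts 2.0.1 over exons, without strand and with fragments over several genes counted for each, on GRCm38 with Ensembl release 101, per the file headers. The submitters' processing notes name the same build and also HISAT2 and DESeq2, with versions not given in the sources used here. Symbols were found for 55141 of 55401 gene IDs.

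Counts were fitted with edgeR 4.0.16 in R 4.3.3 (quasi-likelihood test, filterByExpr, TMM scaling, 8 group means over 23 libraries, Benjamini-Hochberg adjusted p under 0.05), so that all groups share 1 estimate of the spread, including 4 knock-out libraries whose Selenow level goes against their label. Each SE was obtained from the fold change and its F statistic. The fit was first tested on simulated data with 200 genes changed, as many up as down. That is far fewer than were called here, so the simulation does not test the scaling under a response of this size. Levels per kb divide CPM by the exonic length in the table. Alternatives were DESeq2 1.42.0, limma-voom 3.58.1, other scalings, filters and thresholds, fewer libraries, and each library left out in turn. Scaling by totals was added after seeing the data.

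Genes were named as the called ones with the largest changes, as key and leading members of gene lists, and as members against a list's majority. A few more, such as cell-type markers, were chosen after their values were seen. The comparison, its gene lists and these choices were made with earlier results of these data known. Genes with near-identical or overlapping copies and antisense genes are uncertain. The promoter of Nos2 was not analysed here, and some genes are not reported here.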

Additional observations from a re-analysis of the deposited data

How the results depend on the processing

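Against a fold of at least 1.5, the call was made for 7384 genes, 3391 higher and 3993 lower, in place of 11382, 5092 and 6290. On library totals, an alternative chosen after seeing the data, 3015 genes were higher and 10368 lower, 256 genes were called in the opposite direction, and 32 of the 82 gene lists had more members higher than lower, against 58. Among the named genes, 3 that were not called had the opposite sign there and were called lower by edgeR: Adgre1 (-0.413, adjusted p = 0.0357), Nkiras2 (-0.583, adjusted p = 0.000142) and Tlr7 (-0.514, adjusted p = 0.00427). The shift of the median by the scaling itself is part of each. Under the other alternatives run, no gene was called in the opposite direction, and the count of called genes was between 9455 and 11442. With 1 library left out at a time, between 10340 and 10886 genes were called, 4648 to 4957 higher and 5679 to 6013 lower, 55 to 60 lists had more members higher than lower, and 494 to 497 of the 500 named genes that were called remained so. DESeq2 gave no adjusted p for Cxcl10 and Slc7a2. No paired analysis was possible because the groups compared share no replicate number in the labels. With a term for the library set seen in the data (libraries 3 and 6 against 1, 2, 4 and 5), 11442 of 16314 tested genes were called, 5516 higher and 5926 lower, no named gene lost its call, and Adgre1, Cx3cr1, Ifitm6, Jun, Mki67, Nfkbil1, Selenow and Vegfa gained one. Depth limits the size of the largest rises, since Il6 had 8 reads in the 3 untreated libraries together.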

Other observations

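Of 14 tested metallothionein and zinc transporter genes, 9 rose and 2 fell, with a median of 0.89 (0.28 on the totals scale). Metallothioneins bind zinc and copper, and ZIP and ZnT carriers move zinc into and out of the cytosol. Beside Mt2 and Slc39a14, the metallothionein gene Mt1 rose by 1.39 ± 0.44 (not called without library 4, edgeR adjusted p = 0.063), the exporter gene Slc30a1 by 1.07 ± 0.15 and the vesicle carrier gene Slc30a4 by 2.19 ± 0.17. Slc30a4 held 12, 11.2 and 13.2 CPM untreated and 58.5, 58.2 and 49.5 CPM after LPS, with no overlap between the groups. The members that fell were Slc30a5 (-1.23 ± 0.11), a carrier of the secretory pathway, and the importer gene Slc39a10 (-1.02 ± 0.28, not called with libraries 3 and 6 both left out).

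Genes of fatty acid oxidation and mitochondrial biogenesis moved in both directions, 6 higher and 9 lower of 21, beside 28.2% and 34.8% of all genes. Their median was -0.11 (-0.72 on the totals scale, 1 higher and 16 lower). Cpt1a, which admits fatty acids to mitochondria, rose by 1.05 ± 0.14 and held 80.4, 80.2 and 62.2 CPM untreated and 158, 162 and 143 CPM after LPS. The peroxisomal enzyme gene Ehhadh changed by -1.19 ± 0.21, and Acadm, the medium-chain dehydrogenase gene of mitochondria, by -0.87 ± 0.16. In one-carbon metabolism the mitochondrial enzyme gene Mthfd2 rose by 1.45 ± 0.41. In that list of 29, 6 rose and 5 fell (4 and 14 on the totals scale). Of 13 tested histone genes, several of which have near-identical copies, 5 rose and none fell (2 and 2 on the totals scale), a list without Hist1h2an, which fell, with Hist3h2a highest (1.97 ± 0.41). Folds moved by over 1.5 times without library 3 for Mthfd2 (2.18).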
